A study of Homo sapiens with 9 samples.

Results

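The 10 genes described here encode structural microtubule-associated proteins (MAPs), namely MAP1A, MAP1B, MAP1S, MAP2, MAPT, MAP4, MAP6, MAP7, MAP9 and DCX. They were found by their symbols among the 42785 genes of 9 RNA-seq libraries, and all 10 were present. MAP1B was chosen by its level in these same libraries, where it held more counts than any other gene in DCC-IP, so its values are given as a description with no test. The other 9 genes were added as its functional relatives, with earlier results of these data known, so their tests were not blind to the data. The libraries come from SH-SY5Y cells, a line derived from a human neuroblastoma, grown in medium with fetal bovine serum. Cell lysate was incubated with beads carrying a mouse antibody to DCC (DCC-IP, 3 libraries) or a rabbit antibody to Nrp1 (Nrp1-IP, 3 libraries), and RNA was also taken from lysate without pulldown (Input, 3 libraries). DCC is the receptor of Netrin-1 and Nrp1 that of Sema3A, and the question was which mRNAs come down with each receptor. The lysis buffer contained cycloheximide, which arrests ribosomes on mRNA, and no deletion or overexpression of a receptor was described. The cDNA was amplified by a PCR method made for single cells, all cells are of a single line, the antibodies come from different species, and no library of a control IgG was analysed here.

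Structural MAPs bind along the microtubule wall, where they stabilise, space or bundle microtubules and tune the access of motors and severing enzymes. In neurons they are sorted between compartments, with tau, the product of MAPT, mainly in axons and MAP2 mainly in dendrites, while MAP1B and DCX are typical of young, growing or migrating neurons. The mRNAs of several MAPs are themselves transported into neurites, and MAP1B mRNA is a well known target of the RNA-binding protein FMRP.

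Gene counts ran from 8838296 to 11055895 per library, or 29.2% to 31.3% of its reads. The floor of detection was set at 3 counts, which equal 0.271 to 0.339 CPM, the unit in which counts are set relative to the size of their library. Floors and intervals cover counting error only, since no molecular identifiers were described. The libraries differed in how many genes they detected. Of 17627 protein-coding symbols matched in RefSeq, between 20.4% (DCC-IP replicate 1) and 42.3% (Nrp1-IP replicate 3) were over the floor, 14.3% in all 9 libraries and 43.2% in none. Of 12 markers of neuroblastoma and sympathetic neuroblasts, 11 in Input, 10 in DCC-IP and 10 in Nrp1-IP were over the floor in at least 1 library, but only 6 in Input, 3 in DCC-IP and 6 in Nrp1-IP were over it in every library of the group, and TH was at 0 in all 9. Their summed counts were 2302 to 3985 in Input, 17943 to 35462 in DCC-IP and 10864 to 15091 in Nrp1-IP, most of them from ISL1. Blood markers were at 0 throughout, the epithelial markers CDH1, KRT5 and KRT19 were at 0, EPCAM had 12 counts in Nrp1-IP replicate 2 and none elsewhere, and the 5 fibroblast markers summed to at most 68 counts, with COL1A2 and COL3A1 at 0. The list did not move together. ISL1 had at least 17501 counts in DCC-IP and at most 3121 in Input, whereas CHGA had 8, 44 and 113 counts in Input and 0, 0 and 8 in DCC-IP, and GAP43 had 10, 19 and 26 against 0, 0 and 6. The part of ISL1 in the results below was not tested.

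The 10 genes fell into a pair with high counts and a group of 8 with low counts, at most 547 in a library. MAP1B and DCX were over the floor in all 9 libraries, with at least 164906 and 11811 counts. The other 8 genes together received 1106 of 92710342 counts. Of their 72 values, 33 were 0, 17 lay between 1 and 3 counts and 22 were over the floor. Of those 22, replicate 3 libraries held 14, replicate 2 libraries 6 and replicate 1 libraries 2. The number of all genes over the floor also went with the replicate number. In DCC-IP, Nrp1-IP and Input it was 4674, 7395 and 6019 in replicate 1. It was 7410, 7685 and 8980 in replicate 2, and 9177, 9720 and 8856 in replicate 3. Counts are compared within a gene only, because they are not corrected for transcript length.

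**Figure D1:**
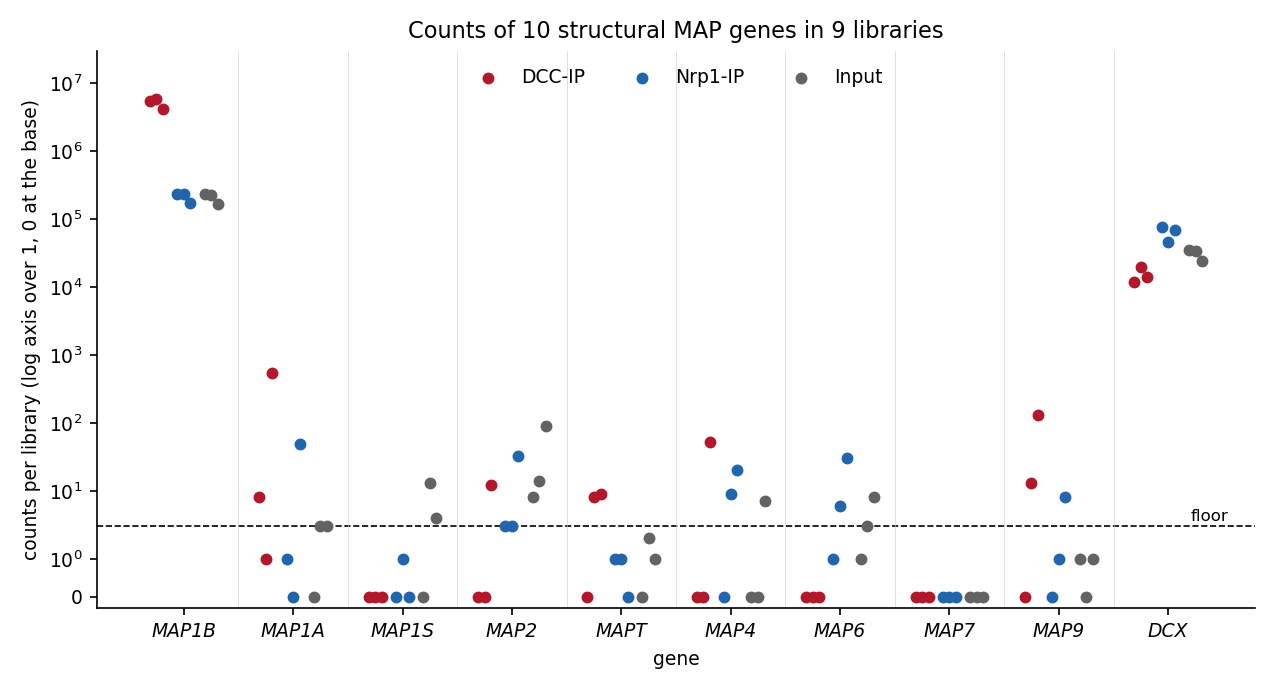
Counts of the 10 structural MAP genes (x axis) in each library (y axis, logarithmic over 1 count, with 0 at the base), 3 points per group and the floor of 3 counts as a dashed line. MAP1B lies between 164906 and 5760797 counts and DCX between 11811 and 75280, while no other gene exceeds 547.

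The MAP1 family consists of large proteins that are cleaved into a heavy and a light chain, and MAP1B is its member of early axon growth. MAP1B had 232433, 226607 and 164906 counts in Input, 5462610, 5760797 and 4184163 in DCC-IP and 236931, 230234 and 172714 in Nrp1-IP. The DCC-IP libraries stood far above the rest, and Nrp1-IP and Input overlapped. As a share of gene counts, MAP1B held 2.18%, 2.25% and 1.87% in Input, 49.6%, 52.1% and 40.3% in DCC-IP and 2.44%, 2.29% and 1.58% in Nrp1-IP. The Wilson 95% intervals of these shares reach at most 0.0299 percentage points to either side, far less than the spread between replicates. Replicate 3 had the lowest share in each group. Relative to all reads, including those on no gene, the mean share was 0.638% in Input, 14.4% in DCC-IP and 0.647% in Nrp1-IP.

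MAP1B was among the genes with the most counts in every library, and in DCC-IP its lead was wide. It ranked first in the 3 DCC-IP libraries, with 46.4, 38.8 and 37.0 times the counts of the next gene. Over the summed DCC-IP counts, the genes behind it were SBNO1, a nuclear regulator, and NFIB, a transcription factor of the nuclear factor I family. In Nrp1-IP it ranked between 3 and 5, after PAFAH1B2, USP22 and TMEM33 in the summed counts, and had 0.462 to 0.694 times the counts of the leading gene. In Input it ranked 5 or 6, with YWHAE, ANP32E and PAFAH1B2 leading the summed counts, and had 0.578 to 0.854 times those of the leading gene.

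Fitted in edgeR over all genes, MAP1B had a log2 fold change of -4.75 ± 0.37 (SE, 3 libraries a group) for Nrp1-IP over DCC-IP, a difference of 26.9-fold. It was higher by 4.22 ± 0.27 in DCC-IP than in Input, or 18.6-fold. Between Nrp1-IP and Input the log2 fold change was -0.38 ± 0.27, and the values overlapped. With scaling by library size only, this last value became 0.00164. Relative to the median of all genes tested, it was -0.44 with the usual scaling and -0.44 with library size only. In order, DCC-IP was highest, and the values of Nrp1-IP and Input overlapped. Leaving out each library in turn gave between 4.04 and 4.82 for DCC-IP over Input.

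The counts of MAP1B left fewer for all other genes in DCC-IP. Without MAP1B, the DCC-IP libraries held between 5295098 and 6188838 gene counts, the Nrp1-IP libraries between 9474090 and 10764537 and the Input libraries between 8673390 and 10438440. The floor of 3 counts then equals 0.485 to 0.567 CPM in DCC-IP, against 0.279 to 0.317 in Nrp1-IP and 0.287 to 0.346 in Input. Measured on the counts that remained, the floor thus lay higher in DCC-IP.

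In the order of RefSeq, the genes that follow MAP1B had few counts. MRPS27, a mitochondrial ribosomal protein gene, had 0, 13 and 18 counts in Input, 0, 4 and 2 in DCC-IP and 0, 0 and 14 in Nrp1-IP. PTCD2 had at most 15 counts in any library, and MIR4803, a microRNA gene inside MAP1B, was at 0 in all 9. The high counts did not extend to MRPS27 or PTCD2, and genes before MAP1B are not given here. The 0 of MIR4803 says little, since no capture of small RNA was described. These neighbours were chosen for their place, outside the rule for named genes. Only the gene order was used, since the RefSeq list is of another build than the hg19 of the counts.

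The relatives of MAP1B did not share its counts. MAP1A, the family member of mature neurons, had 0, 3 and 3 counts in Input, 8, 1 and 547 in DCC-IP and 1, 0 and 49 in Nrp1-IP. A single library, DCC-IP replicate 3, held 89.4% of them. MAP1A passed the filter in no comparison of the fit as reported. With no filter on low counts it was called higher in DCC-IP than in Input, by 5.87 (edgeR, adjusted p = 0.0244), against 2.78% of the genes in that fit, and most of its counts are from this library. MAP1S, the small and widely expressed member of the family, was at 0 in the 3 DCC-IP libraries and had 0, 1 and 0 counts in Nrp1-IP and 0, 13 and 4 in Input.

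**Figure D2:**
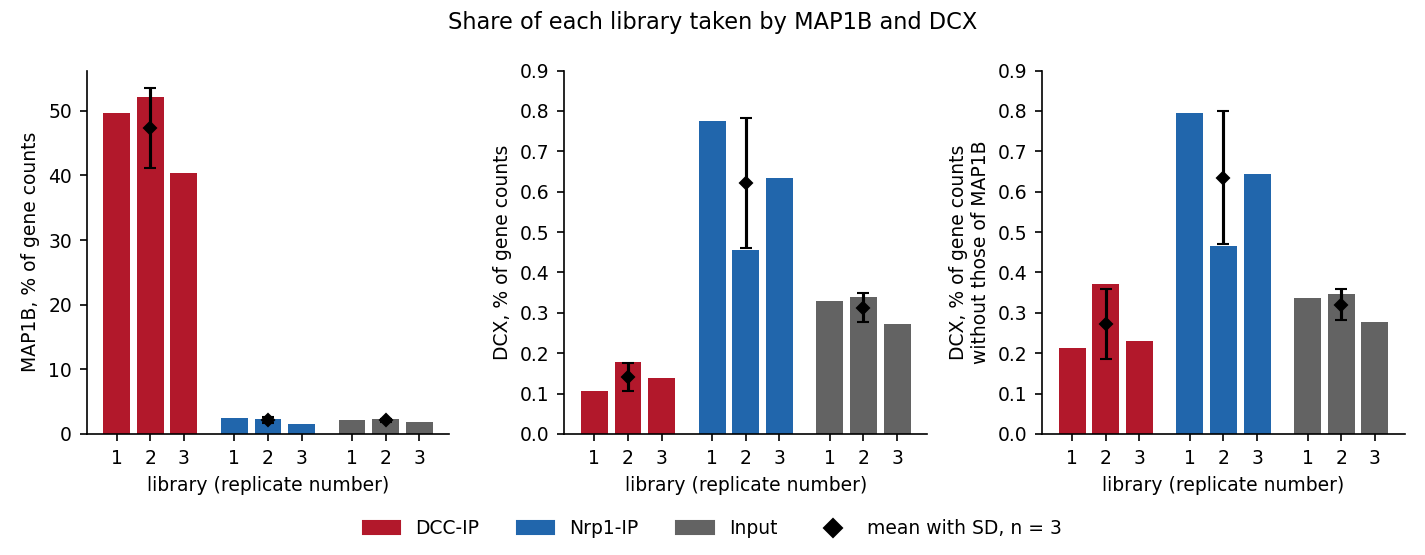
Percent of gene counts held by MAP1B (left) and DCX (middle), and percent held by DCX once MAP1B is taken out of the total (right), in each library (bars, numbered by replicate) with the group mean and SD (diamonds, n = 3). MAP1B takes 40.3% to 52.1% of DCC-IP libraries, and the DCX bars of DCC-IP and Input overlap only in the right panel.

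MAP2, tau and MAP4 share a family of microtubule-binding repeats, and all had low counts. MAP2 had 8, 14 and 89 counts in Input, 0, 0 and 12 in DCC-IP and 3, 3 and 33 in Nrp1-IP. Every Input library was over the floor, with replicate 3 far above the other two. In the fit as reported, MAP2 passed the filter only against Input. There its log2 fold change was -3.69 ± 2.03 (SE) in DCC-IP (edgeR, adjusted p = 0.341) and -2.16 ± 1.31 in Nrp1-IP (adjusted p = 0.389), so neither difference passed. It passed that filter through the Input libraries, so no count of tested members rests on it, and the fitted values against counts of 0 depend on the prior count. They also hung on single libraries. DCC-IP over Input became -8.30 without DCC-IP replicate 3 and -1.98 without Input replicate 3, and Nrp1-IP over Input became -3.98 without Nrp1-IP replicate 3 and -0.45 without Input replicate 3. None of these fits called MAP2 (edgeR, adjusted p between 0.108 and 0.915).

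MAPT, which encodes the axonal protein tau, had 0, 2 and 1 counts in Input, 0, 8 and 9 in DCC-IP and 1, 1 and 0 in Nrp1-IP. Its antisense gene MAPT-AS1 was at 0 in all 9 libraries. MAP4, the widely expressed relative found outside neurons, had 0, 0 and 7 counts in Input, 0, 0 and 53 in DCC-IP and 0, 9 and 20 in Nrp1-IP. The replicate 3 library was the highest of each group for MAP4. Neither MAPT nor MAP4 had enough counts to be tested in the fit as reported.

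MAP6, which makes microtubules stable in the cold, was at 0 in the 3 DCC-IP libraries and had 1, 6 and 30 counts in Nrp1-IP and 1, 3 and 8 in Input. MAP7, which recruits the motor kinesin-1 to microtubules, was at 0 in all 9 libraries, as were 35.4% of the protein-coding symbols. A count of 0 over the 92710342 counts allows up to 0.0324 CPM. MAP9, known from the mitotic spindle and from cilia, had 1, 0 and 1 counts in Input, 0, 13 and 130 in DCC-IP and 0, 1 and 8 in Nrp1-IP. DCC-IP replicate 3 held 84.4% of the MAP9 counts, as it held most of those of MAP1A. MAP6, MAP7 and MAP9 did not pass the count filter of the fit as reported and were not tested in it.

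DCX encodes doublecortin, which binds between the protofilaments of the microtubule and is needed for neurons to migrate to the cortex. DCX had 35153, 34051 and 23981 counts in Input, 11811, 19722 and 14264 in DCC-IP and 75280, 45850 and 69241 in Nrp1-IP. Every Nrp1-IP library was above every Input library, and every Input library above every DCC-IP library. As a share of gene counts, DCX held 0.313% ± 0.0365 (SD, n = 3) in Input, 0.141% ± 0.0357 in DCC-IP and 0.621% ± 0.160 in Nrp1-IP. It ranked between 51 and 103 in DCC-IP, between 20 and 50 in Nrp1-IP and between 65 and 78 in Input.

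Between the receptors, DCX was higher in Nrp1-IP than in DCC-IP by 1.90 ± 0.34 on the log2 scale, or 3.73-fold (edgeR's quasi-likelihood test, adjusted p = 0.0162). Of the 9 genes other than MAP1B it was the only one with enough counts to be tested here, and it was called, against 3.65% of the 6439 genes tested. With TMM scaling, which sets the CPM used from here on, DCX was at 1335, 1579 and 986 CPM in DCC-IP and 7039, 4223 and 5197 in Nrp1-IP. The groups did not overlap, which was so for 26.5% of the genes tested. The call was lost without Nrp1-IP replicate 1 (adjusted p = 0.0883) or Nrp1-IP replicate 2 (adjusted p = 0.0540), while the log2 fold change stayed between 1.87 and 2.22 whichever library was left out. Under the 8 other settings of the fit it lay between 1.92 and 2.20 and was called each time.

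Against Input, DCX was lower in DCC-IP, with a log2 value of -1.45 ± 0.32, or 2.73-fold (edgeR, adjusted p = 0.0383). It was called here, as were 4.98% of the 6223 genes tested. The CPM of the groups did not overlap, as for 33.3% of the genes tested. This call depended on the setting. With the replicate number as a block DCX was at -1.46 and was called (edgeR, adjusted p = 0.00514), as were 11.5% of the genes in that fit. It was also called with DESeq2, with at least 10 counts in every library and with all 9 libraries in one fit. The call was lost in the following fits. The log2 fold change was -1.54 with RLE size factors (adjusted p = 0.0586), -1.15 with library size only (adjusted p = 0.0552), -1.25 with no filter (adjusted p = 0.221) and -1.19 with MAP1B taken out of the table (adjusted p = 0.121). It was also lost in 5 of the 6 fits that leave out a library, all but the fit without Input replicate 3, with values between -1.65 and -0.996.

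The position of DCX in DCC-IP also depended on what it was counted against. With MAP1B taken out of the total, DCX held 0.213%, 0.372% and 0.230% of the counts in DCC-IP and 0.337%, 0.346% and 0.276% in Input, and these overlapped. In Nrp1-IP it held 0.795%, 0.467% and 0.643%, above both other groups. The direction against Input was the same in all settings, and relative to the median of all genes tested it lay between -1.97 and -0.96. The difference between the receptors, taken the same way, lay between 1.79 and 2.41.

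In Nrp1-IP against Input, the log2 fold change of DCX was 0.59 ± 0.28 (edgeR, adjusted p = 0.270). It was not called, against 4.97% of the 6501 genes tested, and its CPM overlapped between the groups, whereas 31.5% of the genes tested did not overlap. The Nrp1-IP values of 7039, 4223 and 5197 CPM stood beside 4535, 4060 and 3014 in Input. With library size only, the log2 fold change was 0.99 and passed the threshold (adjusted p = 0.0433). In CPM the order was thus Nrp1-IP, Input and DCC-IP, and the first and second did not differ beyond their spread. The 3 comparisons share libraries, so their values for a gene are not independent.

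**Figure D3:**
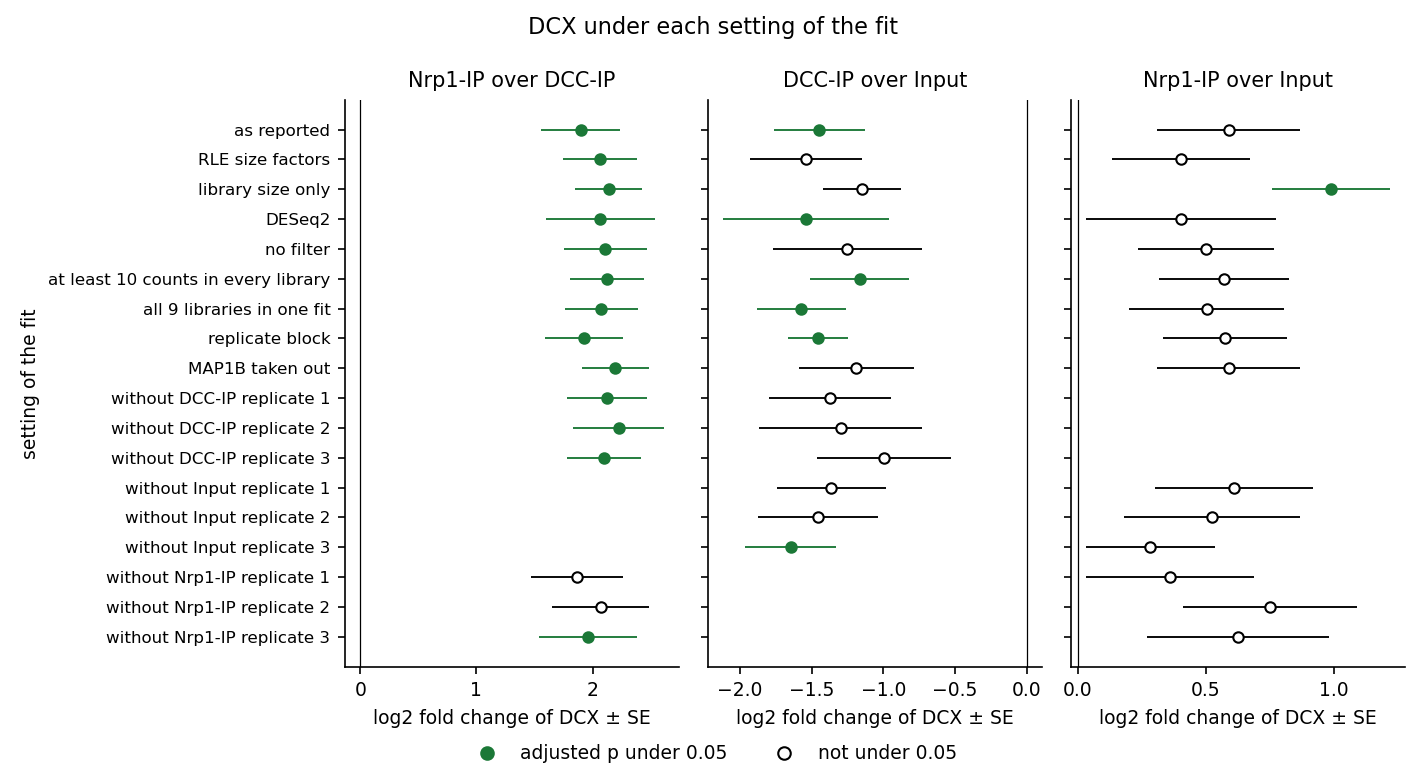
Log2 fold change of DCX with its SE (x axis) in the 3 comparisons under each setting of the fit (y axis), with filled green points where the adjusted p was under 0.05. Nrp1-IP over DCC-IP lies between 1.87 and 2.22, with 2 of 15 fits not called, and DCC-IP over Input between -1.65 and -0.996, with 9 of 15 not called.

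The ratio of MAP1B to DCX counts within a library needs no scaling between libraries. It was 6.61, 6.65 and 6.88 in Input, 463, 292 and 293 in DCC-IP and 3.15, 5.02 and 2.49 in Nrp1-IP. The Input libraries agreed closely, all Nrp1-IP libraries were below them and all DCC-IP libraries far above. The ratio uses the MAP1B counts and was not tested, and its size also reflects the lengths of the transcripts.

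The 5 genes whose log2 CPM most resembled that of MAP1B over the 9 libraries, among 7627 other genes, were DTWD1, UBE2S, ZFX, C9orf37 and BMPR1B, with Pearson's r between 0.966 and 0.984. UBE2S is a ubiquitin-conjugating enzyme, ZFX a zinc finger transcription factor and BMPR1B a receptor of bone morphogenetic proteins. ZFX was at 838 ± 200 CPM (SD, n = 3) in Input, 4297 ± 951 in DCC-IP and 560 ± 104 in Nrp1-IP. DTWD1, at the top of the order, was far lower, with 0.167 ± 0.0736 CPM in Input, under the floor, 9.96 ± 6.12 in DCC-IP and 0 in Nrp1-IP. In all, 50 genes had an r over 0.9.

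The genes most like DCX were FAM117B, PCNXL2, a transcript with a clone name, ZNF286A and LPCAT3, with r between 0.979 and 0.988, and 153 genes had an r over 0.9. ZNF286A is a zinc finger gene and LPCAT3 an enzyme that remodels membrane phospholipids. FAM117B was at 3232 ± 1689 CPM in Input, 437 ± 183 in DCC-IP and 4829 ± 1844 in Nrp1-IP. ZNF286A was highest in Nrp1-IP as well, at 3185 ± 158 CPM, with 2238 ± 620 in Input and 718 ± 85.7 in DCC-IP. No member and no gene of the microtubule lists below was among either set of 5. The 9 points share libraries and groups and are no independent evidence of a relation.

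**Figure D4:**
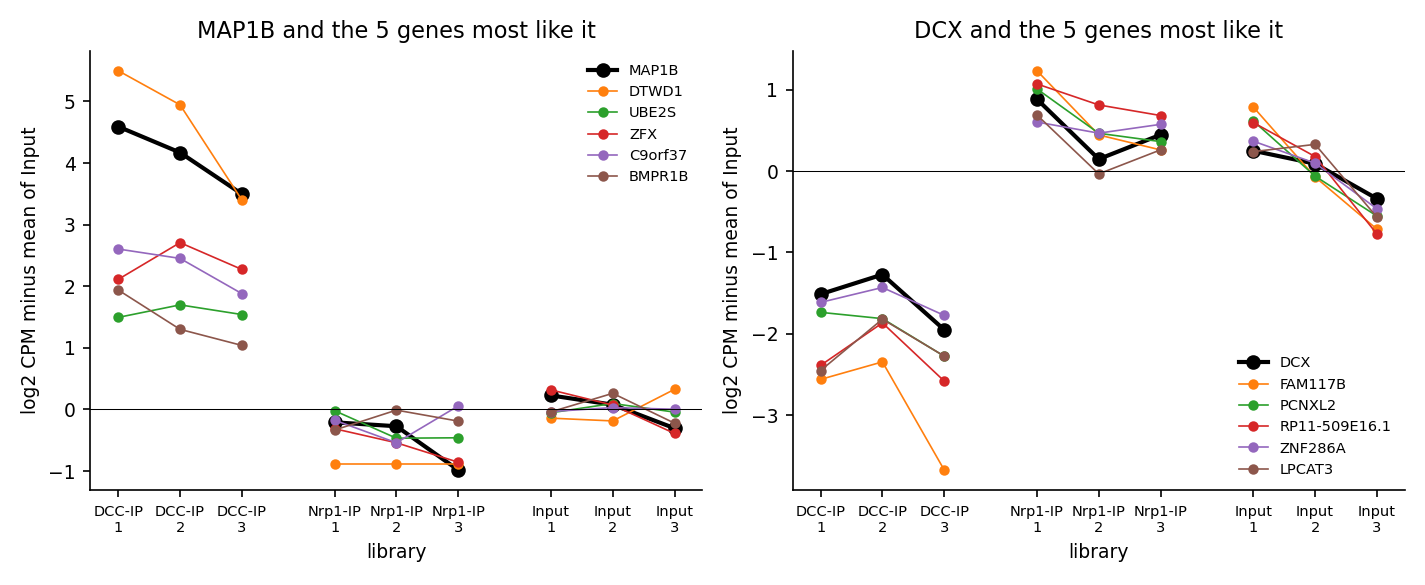
Log2 CPM of MAP1B (left) and DCX (right) and of the 5 genes most like each, as the difference from the mean of the Input libraries (y axis), in the 9 libraries (x axis). The genes on the left stand highest in DCC-IP, and those on the right stand lowest there and, in their means, highest in Nrp1-IP, with r of at least 0.966 and 0.979.

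The closest relatives of the members differed in how much was counted. MAP7D2 and MAP7D3, related to MAP7, were well over the floor although MAP7 was at 0. MAP7D3 had 63, 71 and 111 counts in Input, 276, 240 and 267 in DCC-IP and 74, 59 and 108 in Nrp1-IP. Its CPM in DCC-IP were above those of both other groups. CPM did not overlap for 26.5% of the genes tested between the receptors and for 33.3% in DCC-IP over Input. Neither difference of MAP7D3 passed the test. The log2 fold change was -1.88 ± 0.66 for Nrp1-IP over DCC-IP (edgeR, adjusted p = 0.172) and 1.26 ± 0.71 for DCC-IP over Input (adjusted p = 0.351). DESeq2 called the former (adjusted p = 0.0289), as it did 10.9% of all genes tested.

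MAP7D2 had 59, 100 and 12 counts in Input, 43, 1134 and 275 in DCC-IP and 250, 463 and 470 in Nrp1-IP. Its DCC-IP libraries spread widely, and its log2 fold change of 2.40 ± 0.69 in Nrp1-IP over Input did not pass (edgeR, adjusted p = 0.0912). It did pass with DESeq2 (adjusted p = 0.0191, 14.9% of genes called), with no filter (0.00713, 5.36%), with at least 10 counts in every library (0.04995, 18.3%) and with the replicate block (0.0364, 8.55%). MAP7D1 had at most 19 counts in any library. Among the kinases with a doublecortin domain, DCLK1 had at most 16 counts, DCLK2 at most 19 and DCLK3 none. MAP6D1, related to MAP6, was at 0 in all libraries.

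Beyond the members, 62 other microtubule genes were listed by function, with 19 that bind the microtubule wall, 26 that bind its ends and 17 kinases and severing enzymes that act on microtubules or MAPs. Between the receptors, 26 of the 62 were tested and 1 was called, NAV2, lower in Nrp1-IP, a share near the 3.65% of all genes tested. Of the 26 values, 5 were positive and 21 negative, with a median log2 fold change of -1.30 beside -0.27 over all genes tested. Genes can pass the filter through only the group where they are high. The signs and the median are thus a description and no support for a shared direction. NAV2 encodes a neuron navigator protein of growing neurites. It had 67, 18 and 695 counts in Input, 814, 187 and 3596 in DCC-IP and 52, 49 and 127 in Nrp1-IP. The log2 fold change was -4.32 ± 0.93 in Nrp1-IP over DCC-IP (edgeR, adjusted p = 0.0377), and the call was lost in every fit that leaves out a library except that without DCC-IP replicate 2, with values between -4.75 and -2.74.

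In DCC-IP over Input, 25 of the 62 were tested and edgeR called 0, against 4.98% of all genes tested. An unadjusted p under 0.05 was found for 6 of the 25, and for 1367 of all 6223 genes tested. DESeq2 called 5 of the 25 and 16.6% of all genes. Of the 25 values, 21 were positive, and the median was 1.37 beside 0.16 over all genes tested. Some listed genes passed the filter through the group where they were high, so this tally is a description only. With the replicate number as a block, where samples of the same number were taken as pairs, 5 genes were called. These were CAMSAP1, CLIP3, EML5 and NAV2, higher in DCC-IP, and MARK2, lower, while that fit called 11.5% of all genes. CAMSAP1, CLIP3 and EML5 were named after their values were seen. CAMSAP1, which binds microtubule minus ends, had 984, 1103 and 418 counts in DCC-IP and 72, 141 and 2 in Input. Its log2 fold change was 4.02 under the block (edgeR, adjusted p = 0.0350) and 3.17 without it (adjusted p = 0.158). It had 732, 598 and 793 counts in Nrp1-IP, again above Input, with a log2 fold change over Input of 3.60 under the block (adjusted p = 0.0454) and 2.95 without it (adjusted p = 0.145). Between the receptors it was at -0.48 ± 0.55 (adjusted p = 0.767).

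In Nrp1-IP over Input, 23 of the 62 were tested and 1 was called, MARK2, a share near the 4.97% of all genes tested. MARK2 is a kinase that phosphorylates tau, MAP2 and MAP4 and so releases them from microtubules. MARK2 had 31, 78 and 34 counts in Nrp1-IP, 225, 309 and 138 in Input and 34, 35 and 11 in DCC-IP. It was lower in Nrp1-IP, at -2.61 ± 0.58 on the log2 scale (edgeR, adjusted p = 0.0464). The call was lost in every fit that leaves out a library except that without Input replicate 3. Both pulldowns were below every Input library. The CPM of the groups did not overlap for 31.5% of the genes tested in Nrp1-IP over Input and 33.3% in DCC-IP over Input. In DCC-IP over Input the log2 fold change of MARK2 was -3.44 ± 0.90 and did not pass (edgeR, adjusted p = 0.0627). Under the replicate block it was -3.57 (edgeR, adjusted p = 0.0357). Of the 23 values, 16 were positive, with a median of 0.70 beside 0.06 over all genes tested. This tally too holds genes that passed the filter through the group where they were high, and is a description only.

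**Figure D5:**
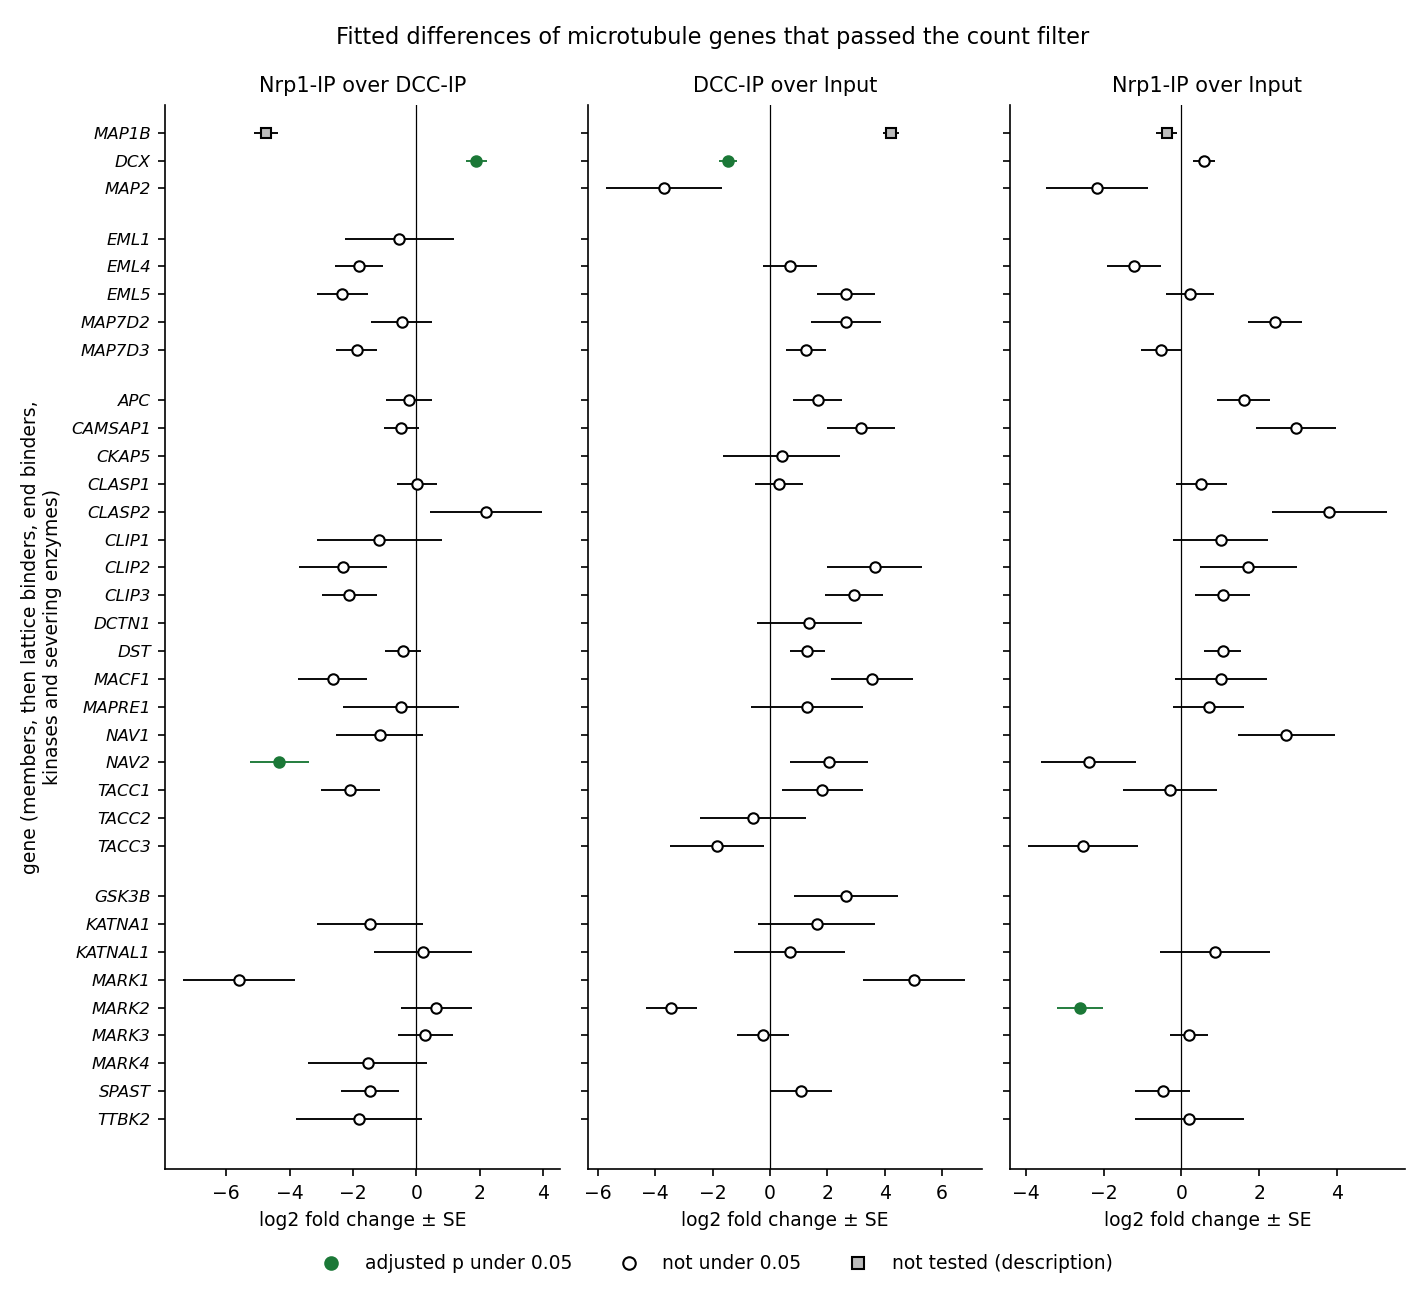
Log2 fold change with its SE (x axes) of MAP1B, DCX, MAP2 and the listed microtubule genes (y axis) that passed the count filter, in the 3 comparisons, with filled green points for an adjusted p under 0.05 and a grey square for MAP1B, which was not tested. DCX is called in the first and second panels, NAV2 in the first and MARK2 in the third.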

How the data were processed

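The authors aligned reads to hg19 with HISAT2 2.1.0 and counted them per gene with HTSeq 0.11.0, after bcl2fastq, per the submitters' processing notes. They deposited raw counts per gene symbol for each library, without normalization. The annotation and strand setting are not given in the sources used here. The 5 HTSeq summary lines of each library stayed out of gene counts (ambiguous reads were 0.195% to 0.517% of all reads).

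Groups and replicate numbers came from the sample labels. The study describes biological replicates, and counts of replicates differed by 48.6 to 232 times the degrees of freedom in chi-square. Pairs of groups were compared on their 6 libraries with edgeR 4.0.16 in R 4.3.3 (filterByExpr with a minimum count of 10, TMM, glmQLFit, glmQLFTest), with Benjamini-Hochberg adjustment over all genes tested and a threshold of 0.05. An SE is the size of the log2 fold change divided by the square root of F. CPM used TMM factors over all 9 libraries, between 0.726 and 1.39, and log2 CPM a prior count of 2. Shares have Wilson 95% intervals.

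The members and gene lists were chosen with earlier results of these data known. The text names all 10 members, listed genes called in any comparison, relatives of MAP6, MAP7 and DCX, the 5 genes most like MAP1B and DCX, and the 3 genes with the most counts per group. Deviations of libraries from their group means over 7628 genes correlated at 0.117, 0.187 and 0.421 between DCC-IP and Input libraries of the same number. The fits as reported used no pairing, and the replicate number entered as a block only as an alternative. The reason for the block comes from these correlations, not from the labels. Replicate 1 also had the fewest genes over the floor in every group. The part of this in the correlations was not tested.

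Alternatives were RLE size factors, library size only, DESeq2 1.42.0, no filter, the replicate block, MAP1B taken out, a minimum of 10 counts required of every library, a joint fit of all 9 libraries and each library left out. The fits were also run on simulated counts with the same dispersion for all genes. The simulation did not model the share of MAP1B in DCC-IP or the differences between replicates, so it does not test these. Python 3.11.15 with pandas 2.3.3, scipy 1.17.1 and matplotlib 3.10.9 did the rest.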

Additional observations from a re-analysis of the deposited data

Results flagged for a closer look

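MAP7D3, related to MAP7, was above Input in every DCC-IP library and below Input in every Nrp1-IP library on the CPM scale, which is why it is listed here. It was at 10.2 ± 3.27 CPM (SD, n = 3) in Input, 22.96 ± 7.15 in DCC-IP and 6.82 ± 1.34 in Nrp1-IP. The mean of DCC-IP over that of Nrp1-IP was 1.751 on the log2 scale. The test of this difference did not pass (edgeR's quasi-likelihood test, log2 fold change -1.88 ± 0.66, Nrp1-IP against DCC-IP, adjusted p = 0.172), while DESeq2 called it (adjusted p = 0.0289, 10.9% of genes called). The gap between Nrp1-IP and Input was narrow, from 8.11 CPM in Nrp1-IP replicate 3 to 8.13 in Input replicate 1, and their raw counts overlapped. Nrp1-IP over Input was at -0.52 ± 0.51 (edgeR, adjusted p = 0.628). CPM did not overlap for 33.3% of genes tested in DCC-IP over Input and 31.5% in Nrp1-IP over Input. The share of all genes with the pulldowns on opposite sides of Input is not given here.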

How the results depend on the processing

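MAP1B kept its direction between DCC-IP and the other groups in every fit. Leaving out a library moved it between -4.84 and -4.30 for Nrp1-IP over DCC-IP and between 4.04 and 4.82 for DCC-IP over Input. Its share of all reads was 14.4%, 0.647% and 0.638% in DCC-IP, Nrp1-IP and Input. With library size only, Nrp1-IP over Input reversed to 0.00164, where the median of all genes tested moved from 0.06 to 0.44. Among the members other than MAP1B, DCX was the only call of edgeR with the filter. In Nrp1-IP over DCC-IP, 0 to 1 members were called when a library was left out. In DCC-IP over Input, 0 were called with RLE size factors, library size only or MAP1B taken out, and 0 to 1 with a library left out. With no filter the only call there was MAP1A. In Nrp1-IP over Input, 1 was called with library size only. MAP2 has no value where at least 10 counts were asked of every library.

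The counts of listed genes were small and moved with most settings. In Nrp1-IP over DCC-IP, 1 became 0 with library size only, all 9 libraries in one fit or MAP1B taken out. It was 0 to 1 with a library left out. DESeq2 called 2 of 26, against 10.9% of all genes, and the fit with no filter 2 of 55, against 484 of 15766 genes. In DCC-IP over Input, 0 became 5 of 25 with DESeq2 (16.6% of all genes called) and 2 of 52 with no filter (2.78%). It became 3 of 12 with at least 10 counts in every library (805 of 2634 genes) and 1 of 31 with all 9 libraries (780 of 7628). In Nrp1-IP over Input, 1 became 0 with library size only or all 9 libraries, and 0 to 3 with a library left out. It became 3 of 23 with DESeq2 (14.9% of all genes), 6 of 54 with no filter (5.36%) and 2 of 12 with at least 10 counts (18.3%). The causes were not tested.

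With the replicate block, which takes libraries of the same number as pairs, listed calls went from 0 to 5 in DCC-IP over Input. They went from 1 to 3 in Nrp1-IP over Input, and these fits called 11.5% and 8.55% of all genes. In DCC-IP over Input, DCX was at -1.46 (edgeR, adjusted p = 0.00514), and the block changed no call of a member. The labels give no pairing for any comparison. Correlations within a number were 0.0989, 0.113 and 0.361 in Nrp1-IP over DCC-IP and 0.215, -0.00436 and 0.365 in Nrp1-IP over Input. Libraries correlated best with their own number in 6 of 6 and 4 of 6 cases there, and in 5 of 6 in DCC-IP over Input.

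Over all genes, calls in Nrp1-IP over DCC-IP numbered 235, but 705 with DESeq2, 484 with no filter, 459 with at least 10 counts, 369 with the block and 74 to 346 with a library left out. In DCC-IP over Input they numbered 310, but 1032 with DESeq2, 805 with at least 10 counts, 780 with all 9 libraries, 715 with the block, 73 with MAP1B taken out and 0 to 250 with a library left out. In Nrp1-IP over Input they numbered 323, but 966 with DESeq2, 882 with no filter, 632 with at least 10 counts, 556 with the block, 518 with library size only, 125 with all 9 libraries and 0 to 441 with a library left out. Of the 8 members with low counts, only MAP2 passed the count filter in the fit as reported, and only against Input. In Nrp1-IP over DCC-IP, up to 5 members other than MAP1B were tested when a library was left out.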
